A study of Mus musculus with 6 samples.

Results

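Transcripts of 8 hepatokine genes, the genes of proteins that the liver releases into blood during fasting or cell stress, were followed in mouse liver labelled as a knockout of the small Maf transcription factors. The genes were taken by name: Fgf21, Gdf15, Igfbp1, Angptl4, Fst, Inhbe, Fetub and Ahsg, through the transcript accession of every non-control probe. All 8 were found, on 9 probes (Fgf21 had 2 and the others 1 each), among 21059 genes and unnamed transcripts tested. Each of the 9 probes was well above background on all 6 arrays and none was saturated. Liver RNA of mice aged 5 weeks was hybridised to Agilent mouse arrays in a single colour, with 3 arrays for mice labelled as wild-type controls and 3 for mice labelled as a liver-specific small Maf knockout (sMaf CKO). The mice of both groups were of a mixed 129Sv/J, C57BL/6J and ICR background and had free access to chow and water in pathogen-free housing, and the labels mention no fasting and no drug. The deleted small Maf genes, the Cre line and the sex of the mice are not named in the labels.

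Hepatokines act on fat, muscle, brain or the liver itself. FGF21 signals through FGF receptors with the co-receptor beta-klotho, and its gene is a textbook target of PPARalpha in fasting and of ATF4 in the integrated stress response, the shared reply of cells to amino acid shortage, unfolded protein and oxidative stress. GDF15 is a stress cytokine whose receptor GFRAL lies in the hindbrain, and its gene responds to the stress factor CHOP and to p53. IGFBP1 binds insulin-like growth factors, and its gene is held down by insulin through FOXO1. ANGPTL4 inhibits lipoprotein lipase, follistatin (Fst) neutralises activins, Inhbe encodes the subunit of activin E, and fetuin-B (Fetub) and fetuin-A (Ahsg) are abundant plasma proteins with cystatin domains. Small Maf proteins have no activation domain of their own and bind DNA as partners of NRF1, NRF2 and related factors.

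The upstream windows of Fgf21 and Inhbe are shown first, because they share an 8-base element, beside that of Igfbp1, which holds 2 elements of insulin-repressed genes. Each is the 250 bases before the annotated start in RefSeq (GRCm38.p6), written in the direction of the gene, with the matched motifs in capitals. Windows were found for 6 of the 8 genes (8 windows, since Gdf15 and Fetub had 2 each), and 6 motifs were searched on both strands.
Fgf21: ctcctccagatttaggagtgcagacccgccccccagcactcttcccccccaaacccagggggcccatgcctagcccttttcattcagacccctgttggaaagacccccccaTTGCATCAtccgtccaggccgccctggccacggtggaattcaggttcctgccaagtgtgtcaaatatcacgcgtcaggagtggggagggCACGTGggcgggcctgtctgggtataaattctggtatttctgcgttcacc
Inhbe: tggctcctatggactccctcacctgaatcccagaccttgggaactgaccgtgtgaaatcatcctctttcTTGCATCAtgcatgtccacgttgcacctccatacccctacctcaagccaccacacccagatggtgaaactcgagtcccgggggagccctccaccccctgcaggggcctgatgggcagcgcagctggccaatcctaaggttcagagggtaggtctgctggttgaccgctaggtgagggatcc
Igfbp1: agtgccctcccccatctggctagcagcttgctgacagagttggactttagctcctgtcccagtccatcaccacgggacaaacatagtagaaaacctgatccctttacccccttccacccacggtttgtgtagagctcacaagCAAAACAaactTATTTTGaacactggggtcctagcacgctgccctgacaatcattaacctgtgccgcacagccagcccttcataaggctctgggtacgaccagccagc
The Fgf21 window is chr7:45615491-45615740 (minus strand), the Inhbe window chr10:127351849-127352098 (minus strand) and the Igfbp1 window chr11:7197537-7197786 (plus strand). The element TTGCATCA, bound by pairs of C/EBP and ATF proteins such as ATF4, began 139 bases before the start of Fgf21 and 181 bases before that of Inhbe, and 0.791% of 32851 windows of this length held it. Fgf21 also held the E-box CACGTG, at 50 bases before the start, as did the downstream window of Gdf15 at 83 bases, against 6.02% of all windows. In Igfbp1, CAAAACA began 108 bases before the start and CAAAATA lay on the opposite strand at 97 bases (capitals TATTTTG), and the shares of all windows with these forms of the insulin response element were 5.56% and 3.95%. Of the 2 forms searched for the element of CNC and small Maf pairs, TGACNNNGC (10.2% of windows) lay in the downstream Fetub window at 110 bases and in the Ahsg window at 12 bases, and TGAGNNNGC (14.4%) was in none of the 8. These matches describe letters in a window and say nothing about binding.

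On each array 58.0 to 73.6% of probes were well above background, with correlations of 0.97 to 0.984 between arrays of one genotype and 0.953 to 0.98 between genotypes. Slide 1 held replicates 1 and 2 of each genotype, and slide 2 held replicate 3 of each. The probe of Mafg, a small Maf gene, read 1.88, 1.87 and 2.23 in controls and -2.97, -4.36 and -0.76 in sMaf CKO livers. Its arrays did not overlap, and the difference of -4.69 (SE 0.79) missed the 0.05 threshold (limma adjusted p = 0.0533). Maff (0.15, adjusted p = 0.911) and Mafk (0.21, adjusted p = 0.759) did not pass either, and their arrays overlapped. The sources used here do not say whether these probes lie in the deleted parts. Levels here are log2 of the processed signal relative to the array's 75th percentile, so that 0 is the 75th percentile, and levels of different probes are not compared with each other. All differences are sMaf CKO minus control on this log2 scale, tested with limma over all 21059 features with Benjamini-Hochberg adjustment at 0.05. In whole liver, fewer cells of a type and less RNA per cell cannot be told apart.

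Of the 8 hepatokines, Fgf21 rose and the other 7 did not pass the test, against 0.541% of all features called in either direction and 0.385% called higher. For Fgf21, Gdf15 and Igfbp1 every sMaf CKO array lay above every control, against 22.9% of all features that did not overlap in either direction and 11.3% that did so on the higher side. Differences were positive for 5 genes and negative for 3, with a median of 0.27 beside -0.05 over all features. An unadjusted p under 0.05 was reached by 16.8% of all features and by 4 of the 8 genes. Counts of calls, of arrays without overlap and of unadjusted p in the gene lists are to be read against these shares.

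**Figure D1:**
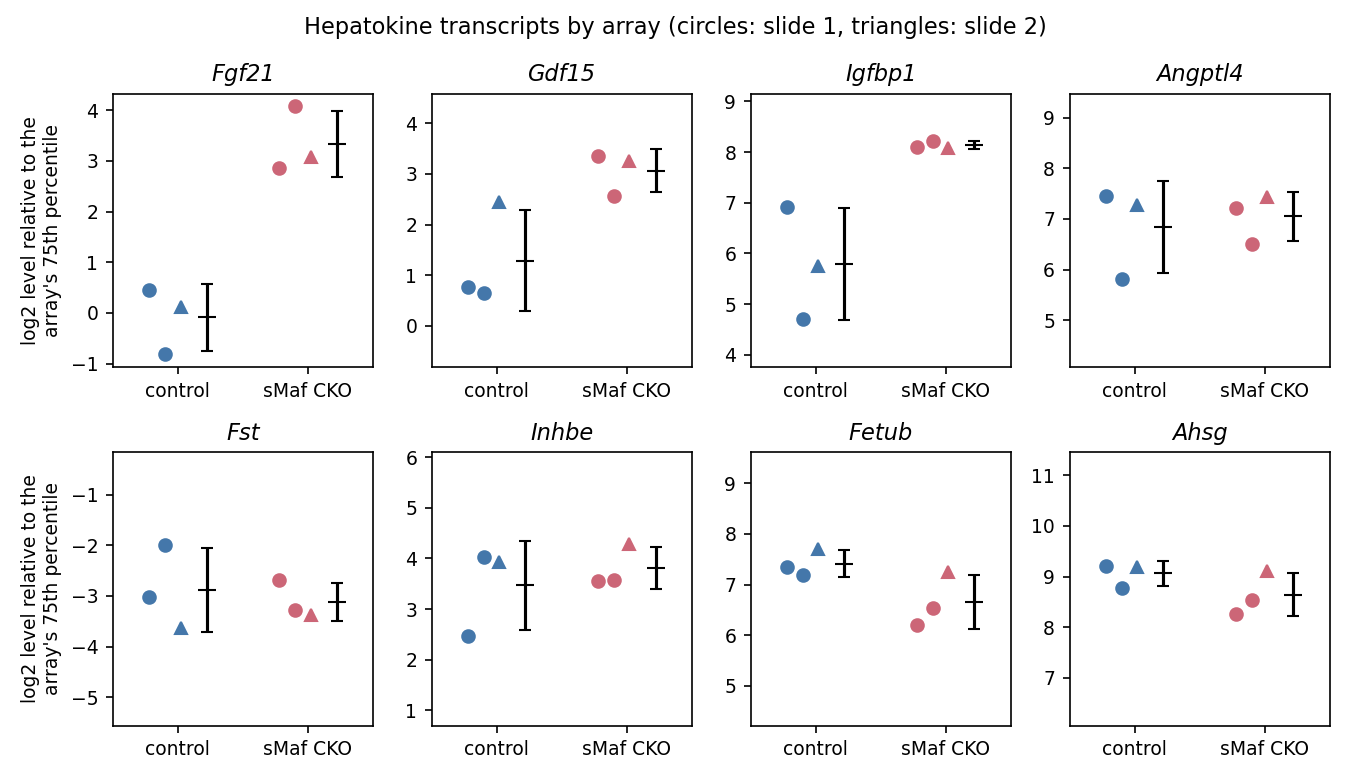
Level of each of the 8 hepatokine transcripts on each array, as log2 of the signal relative to the array's 75th percentile (y axis), by genotype (x axis); circles are arrays of slide 1, triangles arrays of slide 2, and the bars give the mean and SD of 3 arrays. The panels span equal ranges of log2 units: Fgf21 lies from -0.82 to 0.45 in controls and from 2.86 to 4.08 in sMaf CKO liver, while the points of Angptl4, Fst and Inhbe overlap.

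Fgf21, the fasting and stress hormone, was the 1 hepatokine of the 8 that passed the test. Its levels were 0.45, -0.82 and 0.11 in control 1, 2 and 3, and 2.86, 4.08 and 3.07 in sMaf CKO 1, 2 and 3. The lowest sMaf CKO array lay 2.41 above the highest control. The means were -0.09 ± 0.66 in controls and 3.33 ± 0.65 in sMaf CKO liver (SD, n = 3 each), and the difference of 3.42 (SE 0.43) is a 10.7-fold rise with a 95% interval of 5.34 to 21.4 (limma adjusted p = 0.0367, rank 35 of all features by p). The other Fgf21 probe gave the same picture at a lower brightness. It read -1.33, -2.35 and -1.87 in controls and 1.27, 2.50 and 0.96 in sMaf CKO liver, a difference of 3.43 (10.8-fold). On slide 1 the difference was 3.65 and on slide 2, with 1 array of each genotype, 2.96, and with slide as a block the adjusted p was 0.0234. The call needed most of the arrays: it was lost without control 1 (3.69, adjusted p = 0.128), control 3 (3.51, 0.0884), sMaf CKO 1 (3.66, 0.12) or sMaf CKO 2 (3.05, 0.084), each a fit of fewer arrays.

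Genes of the FGF21 receptor complex did not pass the test in either direction. Klb, which encodes beta-klotho, differed by -0.43 (SE 0.33, limma adjusted p = 0.542), Fgfr4, the main FGF receptor of hepatocytes, by -0.48 (SE 0.30, adjusted p = 0.456) and Fgfr1 by 0.10 (SE 0.28, adjusted p = 0.886, with 0.92 on its other probe). The signs for Klb and Fgfr1 turned in a fit with array weights (0.10 and -0.08). Over 8 tested receptor genes of FGF21, GDF15 and insulin, 0 were called with limma, 2 had an unadjusted p under 0.05 (Insr and Fgfr3, -0.63, adjusted p = 0.236, with -1.22 and -0.55 on its other probes), and the median was -0.46. Gfral had no matched probe and Ret, its co-receptor, was above background on 0 arrays.

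The integrated stress response, the pathway that couples ATF4 to Fgf21, held 3 genes that rose among 29 tested and 0 that fell, Fgf21 being one of them. Nupr1, a stress-induced chromatin protein, rose by 3.75 (SE 0.41, limma adjusted p = 0.0218) and Atf3, a factor induced by ATF4, by 3.45 (SE 0.49, adjusted p = 0.0402). Like Fgf21, both lost the call when control 1, control 3, sMaf CKO 1 or sMaf CKO 2 was left out. Each was called in 13 of 20 alternatives, with adjusted p over all of them up to 0.128 for Nupr1 and 0.16 for Atf3. Differences were positive for 23 of the 29 genes, with a median of 0.69 against -0.05 over all features. Of the 29, 13 did not overlap on the higher side and 2 on the lower. These counts and the median include Fgf21 and any other hepatokine on the list. They are therefore not independent of the hepatokine differences. Ddit3, the gene of CHOP, read -0.84, -0.60 and -0.85 in controls and 1.71, 1.93 and 0.28 in sMaf CKO liver. Its arrays did not overlap and its difference was 2.07 (SE 0.42, adjusted p = 0.0854), at 2.54 on slide 1 and 1.13 on slide 2. The adjusted p was 0.00987 when sMaf CKO 3 was left out and 0.0354 when slide entered as a block. Ddit3 also passed with probes above background on all arrays (0.0491), a replicate block (0.0495) and within slide 1 (0.014). The same held for trend and robust eBayes (0.0479) and array weights (0.00334). It did not pass with any other array left out (0.115 to 0.258), with normexp or quantile normalization (0.107 each) or with spike-in scaling (0.331). Atf4 itself read almost the same in both groups, with a difference of 0.01 (SE 0.32, adjusted p = 0.988). Asns, for asparagine synthesis (1.29, adjusted p = 0.315), Slc3a2, for amino acid transport (0.69, adjusted p = 0.19), and the lipoprotein receptor gene Vldlr (1.04, and 0.47 on its other probe, adjusted p = 0.0887) had positive differences that did not pass, as did Trib3 (0.79, adjusted p = 0.303) and Atf5 (0.80, adjusted p = 0.214). Chac1, a glutathione-degrading enzyme that is also an ATF4 target, differed the other way (-1.30, adjusted p = 0.204).

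Among the genes of unfolded protein handling in the endoplasmic reticulum, 0 of 18 were called with limma and 2 had an unadjusted p under 0.05, a share below the 16.8% of all features. Those with the smallest p, Herpud1 (-0.77, adjusted p = 0.229) and Edem1 (-0.70, adjusted p = 0.234), were lower in sMaf CKO liver, and the median of the list was -0.13, or 0.20 with spike-in scaling.

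PPARalpha and fasting genes of lipid use, another known route to Fgf21, had differences in both directions. Of 30 tested genes, Fgf21 was the 1 that rose and 0 fell, 13 differences were positive and 17 negative, and the median was -0.12 (0.16 with quantile normalization and 0.20 with spike-in scaling). Pdk4, the kinase that switches off pyruvate dehydrogenase in fasting, read -0.57, -1.59 and -1.51 in controls and 4.44, 0.89 and 2.38 in sMaf CKO liver. These arrays did not overlap, yet the sMaf CKO arrays were far apart, and the difference of 3.79 (SE 0.80) had an adjusted p of 0.0907. Acot2, a mitochondrial thioesterase, differed by 2.58 (SE 0.58, adjusted p = 0.104). Ppara was lower without overlap (-1.03, SE 0.25, adjusted p = 0.116). Creb3l3, a fasting factor that also acts on Fgf21, differed by -0.17 (adjusted p = 0.775, and by 0.20 with quantile normalization and 0.16 with spike-in scaling) and Cyp4a14, a PPARalpha target, by 0.50 (adjusted p = 0.668).

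**Figure D2:**
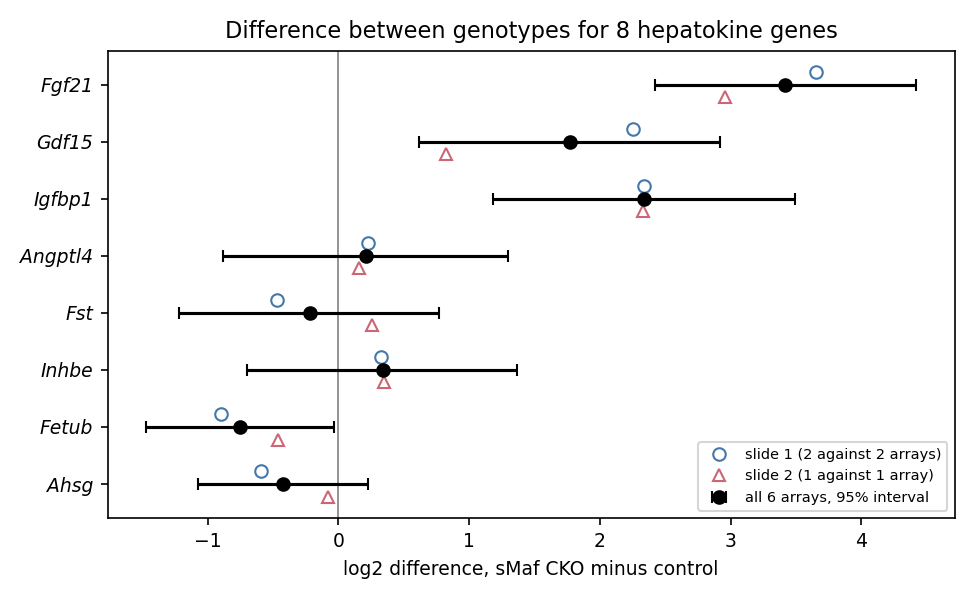
Difference between genotypes in log2 units (x axis, sMaf CKO minus control) for the 8 hepatokine genes (y axis), with the limma estimate and its 95% interval in black and the difference within each slide as open symbols. The interval of Fgf21 runs from 2.42 to 4.42 and the slides agree best for Igfbp1 (2.34 and 2.33), whereas Gdf15 differed by 2.25 on slide 1 and by 0.82 on slide 2.

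Gdf15, the stress cytokine, was higher in sMaf CKO liver without overlap and did not pass the test. Its levels were 0.77, 0.65 and 2.44 in control 1, 2 and 3 and 3.35, 2.57 and 3.26 in sMaf CKO 1, 2 and 3. Control 3, on slide 2, stood 1.67 above the nearest other control and close to the lowest sMaf CKO array. The difference was 1.77 (SE 0.49), a ratio of 3.41 with a 95% interval of 1.54 to 7.56 (limma adjusted p = 0.157, unadjusted p = 0.00771). Within slide 1 the difference was 2.25 and passed (adjusted p = 0.0372), within slide 2 it was 0.82 with 1 array of each genotype and no test, and with slide as a block the adjusted p was 0.0647. Leaving out control 3 gave 2.35, the highest of the 6 values with 1 array left out, and leaving out control 2 gave 1.45, the lowest. With array weights it was 0.86 (adjusted p = 0.174).

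Targets of p53, the tumour suppressor that also acts on Gdf15, were read next, with Gdf15 included. Of 20 tested, 4 rose and 0 fell, against 0.385% of all features called higher. Differences were positive for 17, with a median of 1.06, and 15 did not overlap on the higher side, against 11.3% of all features. Cdkn1a, the cell cycle inhibitor p21, rose by 3.94 (SE 0.27, limma adjusted p = 0.00857), and it kept its call with each array left out in turn and lost it with no filter on dim probes (adjusted p = 0.0518). Phlda3, an inhibitor of AKT signalling, rose by 2.83 (adjusted p = 0.0134) and lost the call without control 1 or sMaf CKO 1. It was called in 16 of 20 alternatives (adjusted p up to 0.119 over all of them). Psrc1, a spindle protein, rose by 3.94 (adjusted p = 0.0382, with 3.45 and 2.89 on its other probes). It kept the call in 13 of 20 alternatives (up to 0.161 over all of them) and lost it without control 1, control 3, sMaf CKO 1 or sMaf CKO 2. Ccng1, cyclin G1, rose by 1.35 (adjusted p = 0.0493, with 0.86 on its other probe) and lost it without any one of the 6 arrays (up to 0.313 over all alternatives). Eda2r, a death-domain receptor, was well above background on 1 of 3 control arrays and differed by 3.0 (SE 0.52, adjusted p = 0.0566), and Mdm2, the ligase that degrades p53, differed by 0.86 (SE 0.27, adjusted p = 0.188).

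Macrophages also make GDF15, so their markers were read in the same arrays. Of 12 monocyte-derived macrophage markers, Trem2 (4.18, and 2.86 on its other probe, limma adjusted p = 0.0105) and Gpnmb rose and 0 fell. On the higher side 8 did not overlap, against 11.3% of all features, and on the lower side 1 (Ly6c2, -0.85). The summed level of the list, which overlapped between genotypes, was 42.8 to 58.2 times the 75th percentile signal in controls and 51.7 to 85.8 times in sMaf CKO liver. This sum adds linear levels, so it follows bright genes such as Ly6c2 (means 4.89 in controls and 4.04 in sMaf CKO liver) more than Trem2 (-4.32 and -0.14) or Gpnmb. Gpnmb did not stand well above background in controls (0 of 3 arrays), which gives at least a 22.2-fold rise (measured means -6.71 and -1.19, adjusted p = 0.0117), and with normexp background correction (offset 50) the difference was 2.56 on the log2 scale. With each array left out in turn, Trem2 lost the call without control 1 (adjusted p up to 0.0761 over all alternatives), and Gpnmb without control 1 or sMaf CKO 1 (up to 0.0858). For 12 Kupffer cell markers, 0 were called with limma and 4 had an unadjusted p under 0.05, led by Marco (3.73, adjusted p = 0.0859) and Cd5l (0.88, adjusted p = 0.173). All 12 differences were positive, and 6 did not overlap on the higher side. The sum ran from 102 to 176 in controls and from 229 to 475 in sMaf CKO liver. It follows bright genes such as Cd5l (means 5.91 in controls and 6.79 in sMaf CKO liver) and Marco (2.75 and 6.48). The part of these macrophage and Kupffer cell markers in the Gdf15 difference was not tested.

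**Figure D3:**
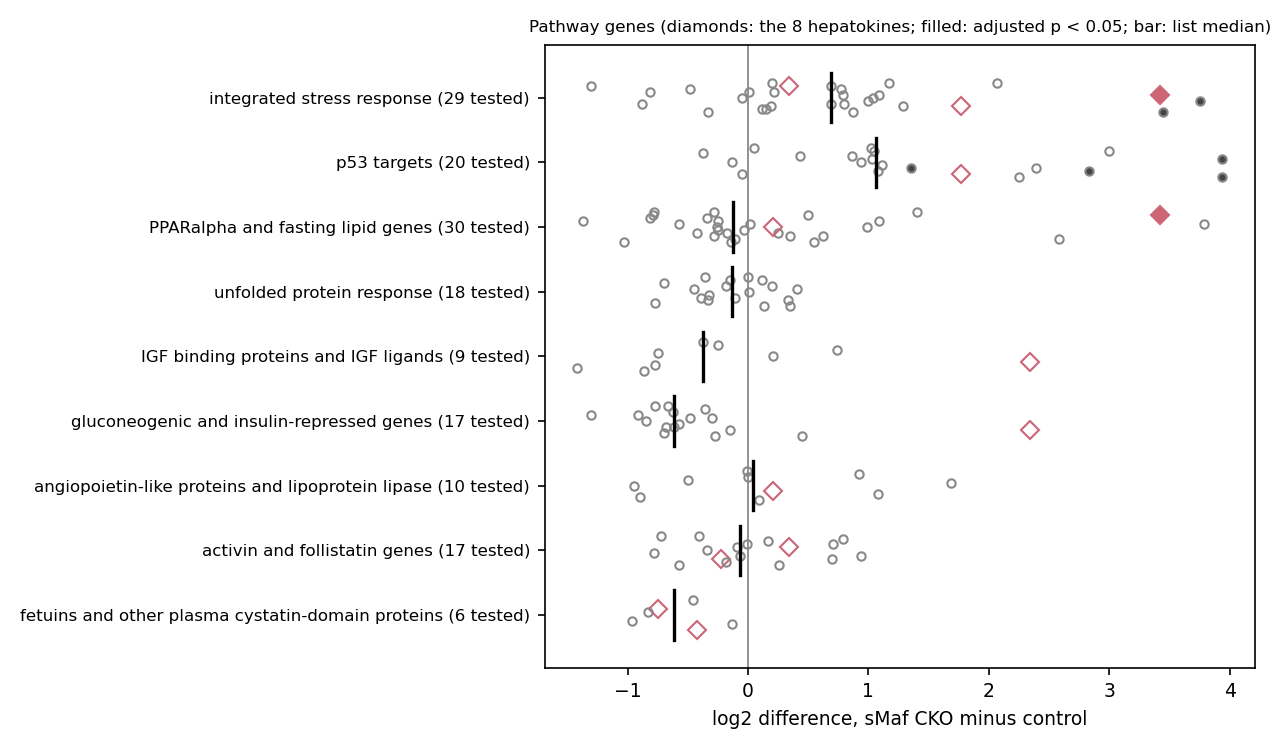
Difference between genotypes in log2 units (x axis) for each tested gene of 9 pathway lists (y axis); diamonds are the 8 hepatokines, filled symbols passed limma at an adjusted p under 0.05, and the vertical bar is the median of the list. The medians of the integrated stress response (0.69) and p53 targets (1.06) lie to the right of 0. Fgf21 (3.42) lies above the medians of both the integrated stress response and the fasting lipid list (-0.12). Igfbp1 (2.34) lies above those of the IGF (-0.37) and gluconeogenic (-0.61) lists.

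Igfbp1, the insulin-repressed IGF binding protein, was higher on every sMaf CKO array and missed the threshold. It read 6.91, 4.71 and 5.75 in controls and 8.09, 8.22 and 8.08 in sMaf CKO liver. Controls spread over 2.2 log2 units (5.79 ± 1.1, SD, n = 3), and the sMaf CKO arrays lay within 0.14 of each other (8.13 ± 0.08). The difference of 2.34 (SE 0.50) is a ratio of 5.05 with a 95% interval of 2.26 to 11.3 (limma adjusted p = 0.0912, unadjusted p = 0.00178). It was the same on slide 1 (2.34) and slide 2 (2.33), and the adjusted p with slide as a block was 0.0748. With array weights, which gave sMaf CKO 2 a weight of 6.89 and the other arrays 0.383 to 2.13, the difference was 2.43 and passed (adjusted p = 0.00615).

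Of 9 tested IGF carriers and ligands, Igfbp1 included, 0 were called with limma, 4 had an unadjusted p under 0.05, 3 differences were positive and 6 negative, with a median of -0.37 (-0.04 with spike-in scaling). Igfals, the acid-labile subunit that holds IGFs in plasma, read 4.08, 3.60 and 3.67 in controls and 1.95, 2.26 and 2.87 in sMaf CKO liver. The arrays did not overlap and the difference was -1.42 (SE 0.29, adjusted p = 0.0854), at -1.73 on slide 1 and -0.80 on slide 2. It passed without sMaf CKO 3 (-1.67, adjusted p = 0.038), with trend and robust eBayes (-1.42, 0.04) and with array weights (-1.45, 0.005). It did not pass with any other array left out (0.113 to 0.247) or with spike-in scaling (-1.09, 0.459). Igfbp4 (-0.77, SE 0.24, adjusted p = 0.186) and Igfbp3 (-0.75, SE 0.26, adjusted p = 0.229) were also lower without overlap and did not pass. Igf1, the growth hormone-dependent ligand, differed by -0.86 (SE 0.38, adjusted p = 0.308, with -1.46 on its other probe). Igfbp2 differed by -0.37 (SE 0.32, adjusted p = 0.592), by 0.02 with quantile normalization and by 0.20 with array weights.

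The insulin receptor gene Insr was lower on every sMaf CKO array, at 1.30, 1.42 and 1.22 in controls and 0.27, 0.37 and 0.12 in sMaf CKO liver. Both groups were tight, and the difference of -1.06 (SE 0.20) had an adjusted p of 0.0715 in limma, with -0.37 on its other probe. Of 17 tested gluconeogenic and insulin-repressed genes, 0 were called with limma and 5 had an unadjusted p under 0.05, and 15 differences were negative, those of Igfbp1 and G6pc (0.45, SE 0.44, adjusted p = 0.643) being the positive ones. The median was -0.61 (-0.48 with quantile normalization and -0.28 with spike-in scaling). Ppargc1a, the fasting coactivator, differed by -1.30 (SE 0.42, adjusted p = 0.195, with -0.39 on its other probe) and Foxo1, the factor that insulin holds out of the nucleus, by -0.66 (SE 0.25, adjusted p = 0.249). No probe was matched to Pck1 or Irs2.

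**Figure D4:**
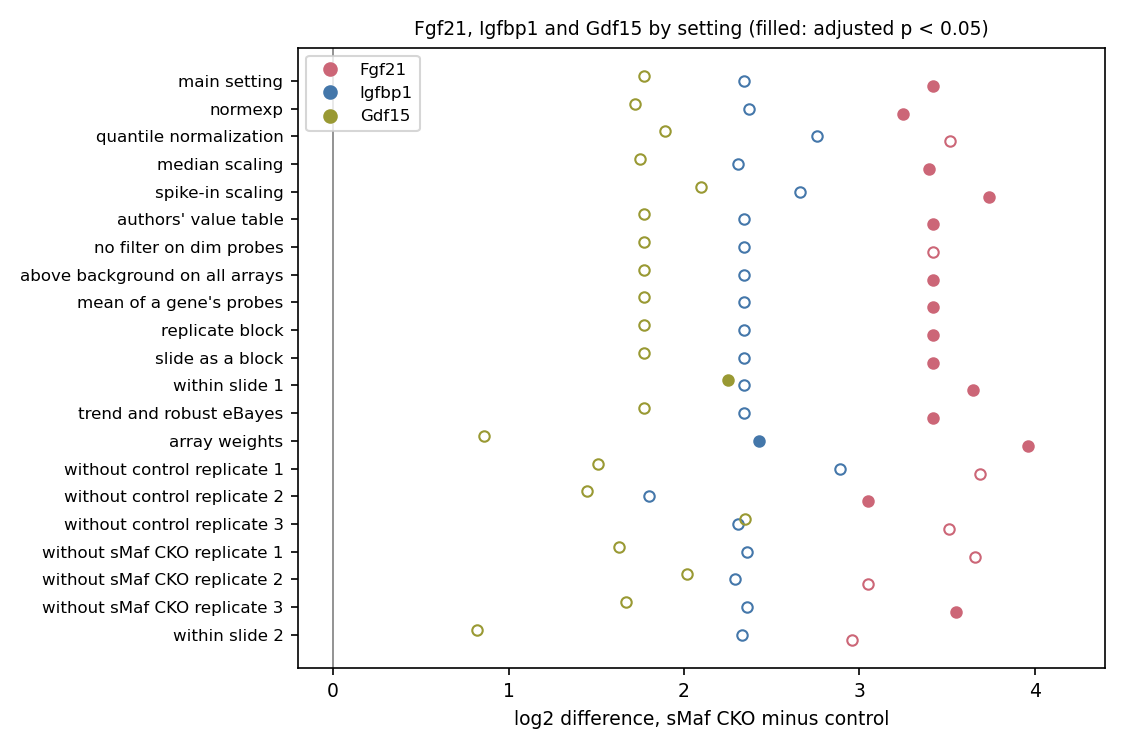
Difference between genotypes in log2 units (x axis) for Fgf21, Igfbp1 and Gdf15 under each processing alternative (y axis); filled points had a limma adjusted p under 0.05, and the values within slide 2 have no test. Fgf21 stays between 2.96 and 3.96, Igfbp1 between 1.80 and 2.89, and Gdf15 is lowest within slide 2 (0.82) and highest without control 3 (2.35).

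Angptl4, the lipoprotein lipase inhibitor induced in fasting, did not differ beyond the spread of the arrays. It read 7.45, 5.81 and 7.27 in controls and 7.21, 6.51 and 7.43 in sMaf CKO liver. Control 2 and sMaf CKO 2 were the low arrays of their groups, and the groups overlapped. The difference of 0.21 (SE 0.47) is a ratio of 1.15 with a 95% interval of 0.543 to 2.46 (limma adjusted p = 0.857), and it was -0.31 without control 2 and -0.43 with array weights. On slide 1 it was 0.23 and on slide 2 0.16. Of 10 tested angiopoietin-like and lipase genes, 0 were called with limma, 2 had an unadjusted p under 0.05, and 5 differences were positive and 5 negative. Lipc, hepatic lipase, was lower without overlap (-0.95, SE 0.27, adjusted p = 0.157), and Angptl7 was higher without overlap (1.69, SE 0.51, adjusted p = 0.175). Angptl8, which also takes part in restraining lipoprotein lipase, differed by 1.08 (adjusted p = 0.552). Lpl itself, which adult hepatocytes make little of, differed by 0.92 (SE 0.44, adjusted p = 0.339) with overlapping arrays.

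Inhbe and Fst, a ligand subunit and an antagonist of the activin family, did not differ beyond the spread either. Inhbe read 2.46, 4.02 and 3.92 in controls and 3.56, 3.58 and 4.28 in sMaf CKO liver. Control 1 was the low array, and without it the difference of 0.34 (SE 0.45, ratio 1.26, 95% interval 0.614 to 2.59, limma adjusted p = 0.742) became -0.17. The windows of Inhbe and Fgf21 share the C/EBP-ATF element printed above, and the Fgf21 difference was 3.42. Fst had signals of 38.9 to 153 and levels of -3.03, -2.0 and -3.64 in controls and -2.68, -3.28 and -3.37 in sMaf CKO liver. The groups overlapped fully, and the difference of -0.22 (SE 0.43, ratio 0.856, 95% interval 0.431 to 1.70, adjusted p = 0.823) was 0.10 with spike-in scaling, 0.22 without control 2 and 0.26 within slide 2.

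Of 17 tested activin and follistatin genes, 0 were called with limma and 6 had an unadjusted p under 0.05 (16.8% over all features), with 7 positive and 10 negative differences. The tally was 9 to 8 with quantile normalization and 12 to 5 with spike-in scaling. Those with the smallest p were Acvr2b, an activin receptor, lower without overlap (-0.78, SE 0.20, adjusted p = 0.139), and Fstl1, a secreted follistatin relative, higher without overlap (0.79, SE 0.22, adjusted p = 0.154). Among the other activin subunits, Inhbb differed by 0.94 (SE 0.31, adjusted p = 0.206, with 0.34 on its other probe), Inhbc, which like Inhbe is made mainly in liver, by -0.72 (SE 0.32, adjusted p = 0.313) and Inhba by -0.01 (SE 0.36, adjusted p = 0.994). The probes of Acvr2a disagreed in sign (0.17 and -0.68), and Fstl3, a further activin antagonist, differed by -0.34 (SE 0.24, adjusted p = 0.501).

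Fetub and Ahsg, the fetuins, had negative differences that did not pass. Fetub read 7.35, 7.19 and 7.70 in controls and 6.21, 6.53 and 7.24 in sMaf CKO liver. The sMaf CKO array of slide 2 overlapped the controls and both others lay below them. The difference of -0.75 (SE 0.31) is a ratio of 0.594 with a 95% interval of 0.36 to 0.979 (limma adjusted p = 0.283, unadjusted p = 0.0431), at -0.90 on slide 1 and -0.46 on slide 2, and it passed with array weights (-0.98, adjusted p = 0.0176). Ahsg read 9.21, 8.78 and 9.19 in controls and 8.27, 8.54 and 9.11 in sMaf CKO liver. Its order of arrays was that of Fetub in sMaf CKO liver, lowest in sMaf CKO 1 and highest in sMaf CKO 3. The difference of -0.42 (SE 0.28) is a ratio of 0.748 with a 95% interval of 0.477 to 1.17 (adjusted p = 0.486), at -0.59 on slide 1 and -0.08 on slide 2. Its highest signal was 343000, below the saturation value of 778858 given in the file headers.

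Ahsg, Fetub, Hrg, Kng2 and Kng1 are consecutive protein-coding genes on mouse chromosome 16 and encode plasma proteins with cystatin domains. With limma, 0 of 6 tested genes of this class, these and Cst3, were called and 3 had an unadjusted p under 0.05. Cst3, which is not one of these neighbours, differed by -0.13 (SE 0.25, adjusted p = 0.836). All 6 differences were negative, with a median of -0.61, and 5 of 6 were negative with quantile normalization or spike-in scaling. Hrg, histidine-rich glycoprotein, was lower without overlap (-0.96, SE 0.36, adjusted p = 0.25), as was Kng2, a kininogen (-0.83, SE 0.28, adjusted p = 0.218), and Kng1 differed by -0.46 (SE 0.24, adjusted p = 0.375). Hepatocyte markers were read beside the fetuins. Of 14 tested, Tdo2, the first enzyme of tryptophan breakdown, fell by 1.86 (adjusted p = 0.0382), 0 rose, and all 14 differences were negative, with a median of -0.52 (3 were positive with quantile normalization and 1 with spike-in scaling). Tdo2 lost its call when any array but sMaf CKO 3 was left out (adjusted p up to 0.324 over all alternatives). The summed level of the hepatocyte list was 3650, 3110 and 3760 times the 75th percentile signal in controls and 1950, 2490 and 3420 in sMaf CKO 1, 2 and 3, the order of the fetuins. Its part in the fetuin differences was not tested.

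Markers of other liver cells were also read beside the hepatokines. With limma, 0 of 12 stellate cell and fibroblast markers were called and 6 had an unadjusted p under 0.05, led by Pdgfra (1.39, adjusted p = 0.0854) and Lum (1.26, adjusted p = 0.0937), and the sum was 96 to 122 in controls and 145 to 175 in sMaf CKO liver. The summed cholangiocyte level was 11.2 to 12.9 in controls and 13.6 to 52.7 in sMaf CKO liver, with 0 of 10 called and 3 with an unadjusted p under 0.05 (Cldn7, 1.48, adjusted p = 0.128, and Epcam, 0.89, adjusted p = 0.235). That sum follows its brightest gene, Spp1, which is also in the macrophage list. Spp1 read 2.99, 3.34 and 3.42 in controls and 5.58, 3.29 and 3.97 in sMaf CKO liver. Endothelial markers had sums of 61.9 to 82.1 and 57 to 74.3 (0 of 12 called, 0 with an unadjusted p under 0.05, Kdr -0.56 and Stab2 -0.46). Lymphocyte sums were 0.998 to 2.25 and 0.993 to 3.56 (0 of 11 called, 1 with an unadjusted p under 0.05, Ncr1 -0.55 and Cd8a 1.30), and erythroid sums 228 to 504 and 308 to 597 (0 of 7 called, 1 with an unadjusted p under 0.05, Klf1 -1.56 and Alas2 0.77). Of the adipocyte list, Lep and Plin1 were above background on 0 arrays and Adipoq on 2, while the 3 tested genes summed to 16.9 to 36.9 in controls and 33.1 to 49.7 in sMaf CKO liver (0 called, 1 with an unadjusted p under 0.05, Cidec, 2.61, adjusted p = 0.075). Their part in the hepatokine differences was not tested.

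Of 22 tested transcription factors known to act on hepatokine genes, Atf3 was the 1 that rose and 0 fell, 7 had an unadjusted p under 0.05, and 16 differences were negative (9 with spike-in scaling), with a median of -0.22 (0.11 with spike-in scaling). Nfe2l2, the gene of NRF2, differed by 0.68 (SE 0.20, limma adjusted p = 0.167).

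The genes whose profile over the 6 arrays lay closest to those of Fgf21 and Igfbp1, the members with the smallest p, were found among 14178 named genes by the root mean square difference of mean-centred log2 levels. For Fgf21 these were Akr1b7, an aldo-keto reductase (0.51), Gsta1, a glutathione transferase (0.58), and Vxn (0.63). Gsta1 rose by 2.93 (limma adjusted p = 0.0117) and lost the call without sMaf CKO 1 or sMaf CKO 2. It was called in 16 of 20 alternatives (adjusted p up to 0.0858 over all of them). Vxn, with 0 of 3 control arrays well above background, rose at least 4.08-fold (measured means -6.26 and -3.60, adjusted p = 0.0184) and lost the call without control 1, sMaf CKO 1 or sMaf CKO 2 (up to 0.0888), and with normexp its difference was 0.67 (adjusted p = 0.427). Akr1b7 differed by 2.75 (adjusted p = 0.0523). The distance of Vxn from Fgf21 rests on control values near background, as does that of Cd209d from Igfbp1 (well above background on 1 of 3 control arrays). For Igfbp1 the nearest were Cd209d (0.48), Lrmda (0.48) and Akr1b7 (0.52), with differences of 1.56 (adjusted p = 0.229), 2.0 (0.202) and 2.75. Both lists rest on 6 arrays and describe likeness only.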

How the data were processed

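Liver RNA of 3 control and 3 sMaf CKO samples was measured on Agilent arrays in 1 colour (Cy3). Per the labels' protocols, the input to amplification and labelling was 500 ng of total RNA. Per the file headers, the authors extracted spot intensity values with Agilent Feature Extraction 10.7.3.1 (protocol GE1_107_Sep09), which subtracts background, and the header build is mm9. The deposited value table holds log2 values. Set against the scanner files it equals log2 processed signal minus the array's 75th percentile, centred on each probe's median over 6 arrays (r = 1 on each array over 41121 probes), so its scale, centring and direction are known, and its column medians are 0.05, -0.02 and 0.08 for control 1 to 3 and -0.10, -0.11 and 0.09 for sMaf CKO 1 to 3.

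Here, log2 processed intensity was averaged over the spots of a probe, without control spots and flagged outliers, and the array's 75th percentile was subtracted. A probe was kept when 3 or more of the 6 arrays had it well above background (27859 of 41174), and the brightest probe stood for a gene. Accessions were matched to the RefSeq gene table, which named 26690 probes. The genotypes were tested in limma 3.58.1 (R 4.3.3) with no covariate and Benjamini-Hochberg adjustment over 21059 features at 0.05. The number of arrays limits precision. The labels call the samples independent RNA samples, and p-values measure the spread between them.

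Alternatives were an adjusted p under 0.10, normexp (offset 50, on median spot and background signals), quantile, median and spike-in scaling (5 bright E1A probes), the authors' value table, other filters, the mean of a gene's probes, replicate and slide blocks, fits within slides, trend and robust eBayes, array weights, and each array left out. Named genes are the 8 hepatokines, the small Maf genes, up to 4 changed or else the 2 lowest-p genes of each list, pathway partners (some are not reported here), and the 3 nearest profiles. Members, lists and tests were chosen with earlier results of these data known. Deviations from the group mean correlated at 0.0634, 0.166 and 0.424 between same-numbered arrays 1, 2 and 3. Between differently numbered arrays the values ran from -0.372 to 0.292. The highest value was that of replicate 3, whose arrays share slide 2. The main fit had no term for replicate or slide, and both blocks are among the alternatives.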

Additional observations from a re-analysis of the deposited data

How the results depend on the processing

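The signs of Fgf21, Gdf15, Igfbp1, Fetub and Ahsg were kept under every alternative. The count of changed genes (114) was 477 at an adjusted p under 0.10, 74 with normexp, 22 with quantile normalization, 252 with median scaling, 12 with spike-in scaling, 1 with no filter, 267 with probes above background on all arrays, 291 with a replicate block, 340 with slide as a block, 196 within slide 1, 308 with trend and robust eBayes, 4406 with array weights, and 3 to 294 with an array left out (3 without sMaf CKO 1, 6 without control 1, 11 without sMaf CKO 2, 22 without control 3, 175 without control 2, 294 without sMaf CKO 3). Rises were 71.1% of calls, against 81.8% with quantile normalization, 61.5% with slide as a block, 47.1% with array weights and 48.6% without sMaf CKO 3. Spike-in scaling moves the median of all genes by 0.33.

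Of the hepatokines, 2 were called at an adjusted p under 0.10 (Igfbp1 at 2.34), 0 with quantile normalization (Fgf21 3.52, adjusted p 0.0596), 0 with no filter (Fgf21 3.42, adjusted p 0.139, with more genes tested), 2 within slide 1 (Gdf15 2.25), 3 with array weights (Igfbp1 2.43, Fetub -0.98), and 0 to 1 with an array left out. The replicate block changed no hepatokine call (adjusted p 0.0346 for Fgf21, 0.0633 for Igfbp1 and 0.0746 for Gdf15). With an array left out the differences ranged from 3.05 to 3.69 for Fgf21, 1.45 to 2.35 for Gdf15, 1.80 to 2.89 for Igfbp1, -0.31 to 0.51 for Angptl4, -0.60 to 0.22 for Fst, -0.17 to 0.61 for Inhbe, -1.04 to -0.53 for Fetub and -0.65 to -0.23 for Ahsg. Signs turned for Angptl4 (-0.43) and Inhbe (-0.05) with array weights and for Fst with spike-in scaling (0.10) and within slide 2 (0.26).

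Among other genes, signs turned with array weights for Maff (-0.76), Klb (0.10), Fgfr1 (-0.08), Igfbp2 (0.20) and Inhba (0.40), with quantile normalization for Creb3l3 (0.20), Igfbp2 (0.02) and Inhba (0.02), with spike-in scaling for Creb3l3 (0.16) and Inhba (0.32), with normexp for Ncr1 (0.03), with median scaling for Atf4 (-0.01) and with the mean of a gene's probes for Acvr2a (-0.25). Leaving out an array turned Maff (range -0.37 to 0.52), Mafk (-0.07 to 0.44), Fgfr1 (-0.16 to 0.24), Atf4 (-0.21 to 0.27) and Inhba (up to 0.37). Counts of changed genes in lists moved in 115 of 420 list and setting pairs, over 21 of 21 lists. Except where fewer arrays or more genes were tested, the cause was not tested.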

Other observations

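Further hepatokines outside the 8 were mixed. Of 18 tested, Gpnmb was the 1 that rose and 0 fell, 6 had an unadjusted p under 0.05, and 12 differences were negative with a median of -0.28 (0.01 with quantile normalization and 0.05 with spike-in scaling). On the higher side 3 of the 18 did not overlap, and on the lower side 1. Gpnmb, a glycoprotein also made by macrophages, did not stand well above background in controls (0 of 3 arrays). Lcn2 was higher without overlap and did not pass (2.38, SE 0.46, limma adjusted p = 0.0746), at 2.92 on slide 1 and 1.30 on slide 2. Enho, the gene of the peptide adropin, read 6.08, 5.56 and 6.14 in controls and 2.87, 3.74 and 5.64 in sMaf CKO liver. The sMaf CKO array of slide 2 overlapped the controls, and the difference was -1.84 (SE 0.64, limma adjusted p = 0.221).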
